A study of Mus musculus with 5 samples.

Results

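The Tribbles genes Trib1, Trib2 and Trib3 were examined in genome-wide profiles of RXRα binding in mouse alveolar macrophages (AMs). A peak was assigned to one of these genes when the transcription start site (TSS) nearest to its midpoint, among the TSSs of protein-coding genes, belonged to that gene. This gave 45 peaks of 14808 in 4 libraries, of which 44 were nearest to Trib1, 1 was nearest to Trib2 and none was nearest to Trib3. Trib1 was chosen by the number of its binding regions in control AMs, so that number and everything measured in the same lists is a description without a test.

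HT-ChIPmentation with an anti-RXRα antibody had been performed on AMs sorted by FACS from bronchoalveolar lavage of 9-wk-old mice on a C57BL/6J background. All mice carried floxed alleles of Rxra and Rxrb. The control libraries, WT A and WT G, came from CD11cCre- Rxrabfl/fl mice without Cre, and the deleted libraries, KO A and KO G, came from CD11cCre+ Rxrabfl/fl mice, in which Cre is driven by Cd11c control elements. Cd11c is also active in dendritic cells and other lung myeloid cells, so the deletion is not specific to AMs. Peaks had been called in each library against an input from CD11cCre- cells, whose own file is not used here. The WT A list holds 4751 peaks and the WT G list 9766, whereas the KO A and KO G lists hold 83 and 208. They measure neither RNA nor protein, so the sorted cell type and the deletion could not be checked in them.

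Tribbles proteins are pseudokinases: they have the fold of a protein kinase but little or no catalytic activity and work as scaffolds. Some of them bring the ubiquitin ligase COP1 to substrates such as the myeloid transcription factor C/EBPα, which is then degraded. TRIB1 is known for its part in the formation of tissue-resident macrophages with anti-inflammatory features and in hepatic lipid metabolism, TRIB2 for its oncogenic activity in myeloid leukemia, and TRIB3 for its induction by ATF4 and CHOP under cellular stress. RXRα is a nuclear receptor that binds DNA as a homodimer or as the partner of receptors such as PPARγ, LXR and the retinoic acid receptors, typically at repeats of the hexamer AGGTCA.

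Trib1 lies on chromosome 15 (GRCm38/mm10, chr15:59648350-59657099, plus strand), in a gene-poor stretch. Its neighbours are Nsmce2, which encodes a SUMO ligase of the SMC5/6 complex and has its TSS 274 kb upstream, and the predicted protein-coding gene 4933412E24Rik, with its TSS 368 kb downstream. The stretch of DNA nearest to the 2 annotated Trib1 TSSs is 321 kb long. Within it, peaks of both WT lists that overlapped by at least 1 bp were merged into regions found in both lists. There were 16 such regions, named R1 to R16 here in order of position. The bases under the summits of the strongest ones are shown because they are the DNA with the highest RXRα signal at this gene. Each sequence is the plus strand of the RefSeq GRCm38.p6 genome, centred on the summit of the stronger WT peak with 50 bp to either side. Capitals mark a match to a motif without mismatch, TTGCNNAA for C/EBP (on the minus strand in R8) or TGANTCA for AP-1, and sequences in lower case throughout held no match to any of the 9 motifs searched. R5 is printed only as a short stretch around its AP-1 match, because it overlaps the 3′ untranslated region (UTR) of the shorter Trib1 transcript. The single Trib2 site is shown for comparison.
R11, chr15:59774006-59774106: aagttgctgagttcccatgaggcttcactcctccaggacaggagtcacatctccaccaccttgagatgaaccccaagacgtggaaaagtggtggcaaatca
R10, chr15:59772742-59772842: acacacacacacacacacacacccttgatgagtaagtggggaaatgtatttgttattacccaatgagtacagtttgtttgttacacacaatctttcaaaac
R5, chr15:59653037-59653063: acccgagggtTGAGTCAtattttccgt
R8, chr15:59744758-59744858: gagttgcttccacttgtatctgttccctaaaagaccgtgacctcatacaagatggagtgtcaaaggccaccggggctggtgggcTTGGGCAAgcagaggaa
R3, chr15:59550641-59550741: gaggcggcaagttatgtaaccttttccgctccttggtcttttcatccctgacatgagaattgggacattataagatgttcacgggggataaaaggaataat
R6, chr15:59679181-59679281: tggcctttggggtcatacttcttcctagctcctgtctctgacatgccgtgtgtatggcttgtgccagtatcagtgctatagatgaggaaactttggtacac
Trib2 distal site, chr12:16042414-16042514: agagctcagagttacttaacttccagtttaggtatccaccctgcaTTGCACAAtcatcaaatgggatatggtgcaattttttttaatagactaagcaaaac

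The first question was how many RXRα peaks each Tribbles gene had in the WT and the KO libraries. WT A had 17 peaks nearest to Trib1, WT G had 27, and KO A and KO G had 0 each. Counting only peaks with a −log10 q of at least 5, WT A had 13 and WT G 12, so the higher number in WT G rested on its weaker peaks. The WT lists held 22 ± 7.07 Trib1 peaks (SD, n = 2), and the genotypes did not overlap. That was the common state of bound genes. Of the 1933 genes with a region in both WT lists, 96.6% had more peaks in both WT lists than in either KO list, and 89.7% had no KO peak. Among the 30 genes with at least 10 WT A peaks, 16 had no KO peak. With 2 libraries a genotype, an exact two-sided permutation test cannot give a p below 0.333, and none was run. The labels do not say whether the libraries of a genotype came from separate mice, so this spread may be technical.

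The WT peaks around Trib1 were spread over a broad field.

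**Figure D1:**
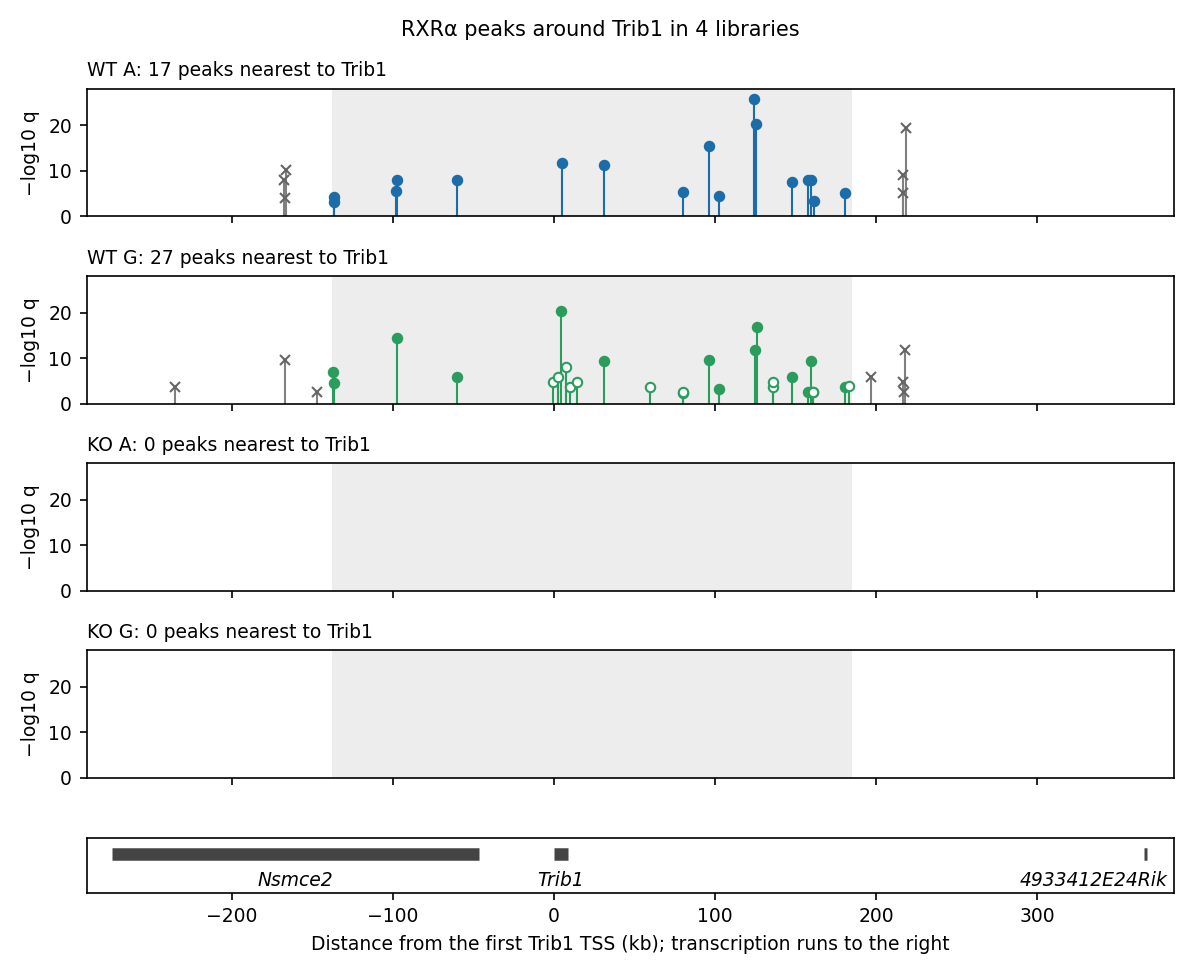
RXRα peaks around Trib1 in each library. The x axis is the distance from the first Trib1 TSS in kb and the y axis the −log10 q of each peak. The grey area is the DNA nearest to a Trib1 TSS. Filled points are Trib1 peaks that overlap a peak of the other WT list, open points those in 1 WT list, and crosses are peaks assigned to a neighbouring gene (drawn at their midpoints). WT A has 17 filled points, WT G has 16 filled and 11 open points, and both KO panels are empty.

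Trib2 (chr12:15791727-15816922, minus strand) had a single peak, in WT G. It lay in intergenic DNA upstream of the gene, at −226 kb from its TSS (chr12:16042390-16042604), with a fold enrichment of 5.16 and a −log10 q of 3.61. WT A, KO A and KO G had no peak there or elsewhere nearest to Trib2. With TSSs of genes of any biotype, or with a −log10 q of at least 5, Trib2 had 0 peaks in WT G as well. Trib3 (chr2:152337422-152344032, minus strand) had no peak in any of the 4 lists. For background, 16.6% of the 21911 protein-coding genes were nearest to at least 1 WT G peak and 8.82% to at least 1 region in both WT lists. Having no region in both WT lists, as Trib2 and Trib3 did, was therefore the common state of a gene. The stretch nearest to a gene's TSSs differed in length between the family members. It was 1219 kb for Trib2, 321 kb for Trib1 and 22.0 kb for Trib3, so the gene with most peaks was not the one with most DNA.

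Strength was read from the deposited fold enrichment and −log10 q at each summit. The 17 Trib1 peaks of WT A had a fold enrichment of 4.97 to 13.8 (median 7.11) and a −log10 q of 3.27 to 25.9 (median 8.06). The 27 Trib1 peaks of WT G had a fold enrichment of 4.21 to 13.2 (median 5.80) and a −log10 q of 2.30 to 20.2 (median 4.64). The number of DNA fragments at a summit, which is the depth behind these values, was solved from the fold enrichment and the −log10 p. It was 12 to 35 (median 17) in WT A and 6 to 21 (median 8) in WT G, with a single whole-number solution for 40 of the 44 peaks. WT G thus listed sites with lower values on fewer fragments than WT A. The libraries' backgrounds from the input differed as well, at 1.25 fragments in WT A and 0.551 in WT G over most of the genome. With 1 added to both parts of the ratio, a smaller background lowers the fold enrichment more. Lower values in WT G are therefore not a measure of weaker binding there. Repeated values come from these small whole numbers: R3, R13 and R14 each had 17 fragments over the genome-wide background in WT A and hence the same fold enrichment of 7.11. Sites that differ by 1 or a few fragments cannot be ranked against each other at this depth.

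The position of Trib1 peaks was shared between the WT libraries. All 17 WT A peaks overlapped a WT G peak, where 83.2% of all WT A peaks did so. Of the 30 genes with at least 10 WT A peaks, 13 had all of them at WT G peaks, so full sharing was not particular to Trib1. In the other direction, 16 of the 27 WT G peaks overlapped a WT A peak, where 36.1% of all WT G peaks did so. The 11 Trib1 peaks in WT G alone were weaker, with a median fold enrichment of 5.26, against 6.76 for the 16 shared ones, and a highest −log10 q of 8.04. The summits of WT A and WT G lay a median of 99 bp apart in the 16 regions (31 to 456 bp), against 96 bp over all 3423 regions in both WT lists.

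By number of regions in both WT lists, Trib1 and Klf6, which encodes a Krüppel-like transcription factor, shared the highest place with 16 each. With only peaks of −log10 q of at least 5, Trib1 had 9 regions and ranked 3, and with WT G cut to as many peaks as WT A it had 10. With TSSs of genes of any biotype it had 1 region and ranked 687. Cebpb had 15 and Zfp608 14, and 19978 of 21911 genes had none. Most genes with a region had 1 (1214 genes) or 2 (380 genes), and 8 genes had 10 or more.

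**Figure D2:**
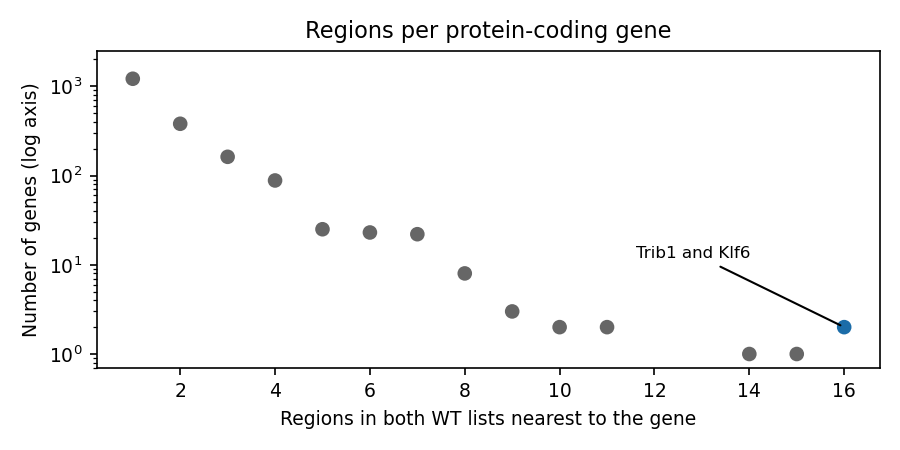
Number of protein-coding genes (y axis, log scale) by the number of regions in both WT lists nearest to them (x axis), for the genes with at least 1. The blue point holds the 2 genes with 16 regions, Trib1 and Klf6. The counts fall from 1214 genes with 1 region to 8 genes with 10 or more.

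The number of regions is not their density. Trib1 had 4.98 regions per 100 kb of its nearest stretch, against 0.126 over all genes, and ranked 291 of all genes on that scale. Among the 89 genes with at least 5 regions it ranked 34. The stretch of Klf6 was 969 kb long and held 1.65 regions per 100 kb, and that of Cebpb was 135 kb long and held 11.1. Trib1 lay between these genes in density.

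The Trib1 regions were distal. Of the 16, 4 lay upstream of the TSS, all within introns of Nsmce2, and 12 lay downstream. Their median distance to the nearest TSS was 125 kb, against 15.7 kb over all regions in both WT lists. Beyond 50 kb of the TSS lay 14 of the 16 (87.5%), against 21.4% of all regions. A region can lie that far only where the stretch nearest to a gene is long, and that of Trib1 was 321 kb. The shares over all regions include genes with short stretches, and genes with stretches of similar length were not compared. From the first to the last they covered 318 kb, with neighbouring summits 0.352 to 64.8 kb apart (median 19.4 kb). The downstream arm held 10 regions more than 75 kb from the TSS, in 101 kb of intergenic DNA.

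Which gene these distal regions are counted for depends on the annotation. When TSSs of genes of any biotype were used, 9 of the 16 regions were nearest to Gm19510, 4 to Gm36677, 2 to Gm20150 and 1, R5, to Trib1. These 3 predicted genes are not annotated as protein-coding. The peaks then nearest to Trib1 numbered 1 (WT A) and 5 (WT G). Nearness to a TSS was the only link made between a peak and a gene, and whether any of these regions acts on Trib1 was not measured.

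The 6 regions ranked highest (by the sum of their −log10 q ranks in the WT lists) fell into 3 places, namely the Trib1 gene and the DNA just after it (R5, R6), the downstream arm (R8, R10, R11) and an Nsmce2 intron (R3). R11 (chr15:59773647-59774601), 126 kb downstream of the TSS, had the highest joint rank, 149 of 3423. Its −log10 q was 20.3 (WT A) and 16.8 (WT G), with a fold enrichment of 10.6 and 11.7 and 35 and 19 fragments at the summit. R10 (chr15:59772331-59773335) lay just before it and ranked 307. Its −log10 q was 25.9 (WT A) and 11.8 (WT G), and its fold enrichment 13.8 and 9.67. R10 and R11 were thus a close pair, strong in both libraries, with WT A higher for R10. The window at the R10 summit begins with a run of CA repeats, and 29.7% of it is marked as repeat in the genome. R8 (chr15:59744320-59745110), 96.5 kb downstream, ranked 630, with a −log10 q of 15.5 (WT A) and 9.64 (WT G) and a fold enrichment of 10.01 and 8.45.

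R5 (chr15:59652750-59654121) was the strongest region within the Trib1 gene itself and ranked 334. Its −log10 q was 11.8 (WT A) and 20.2 (WT G), and its fold enrichment 7.70 and 13.2, so that here WT G was higher. Its summits, 4.70 kb after the first TSS in WT G and 39 bp further in WT A, lie in the second intron of the longer Trib1 transcript and in the 3′ UTR of the shorter one. R6 (chr15:59678885-59679522) lay in intergenic DNA 30.9 kb downstream of the TSS and ranked 844. Its −log10 q was 11.3 (WT A) and 9.26 (WT G), and its fold enrichment 8.68 and 8.38. Upstream, R3 (chr15:59549990-59551571) ranked 762, with a −log10 q of 8.06 (WT A) and 14.5 (WT G). It was a single broad peak of 1582 bp in WT G and 2 peaks in WT A, which is why 17 WT A peaks made 16 regions.

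The other 10 regions had lower joint ranks, although some reached the top 6 in a single list: R4, R13 and R14 had the −log10 q of R3 in WT A, and R14 that of R6 in WT G. Their −log10 q ran from 3.27 (R2) to 8.06 (R4, R13, R14) in WT A and from 2.30 (R7) to 9.26 (R14) in WT G. R15 had the lowest joint rank, with 12 fragments in WT A and 6 in WT G.

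By median strength, the Trib1 regions lay at or just above the middle of all regions in both WT lists in WT A and below it in WT G. The 16 spread widely, with joint ranks from 149 (R11) to 3387 (R15) of 3423. Their median −log10 q was 8.06 in WT A, as it was over all 3423 regions (8.06), and 6.37 in WT G, against 8.04. The median fold enrichment was 7.11 in WT A, against 6.72 over all regions, and 6.76 in WT G, against 7.60. Fold enrichment was higher in WT A than in WT G in 10 of the 16 regions (62.5%), against 39.6% of all regions. Their median width was 536 bp, against 574 bp.

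**Figure D3:**
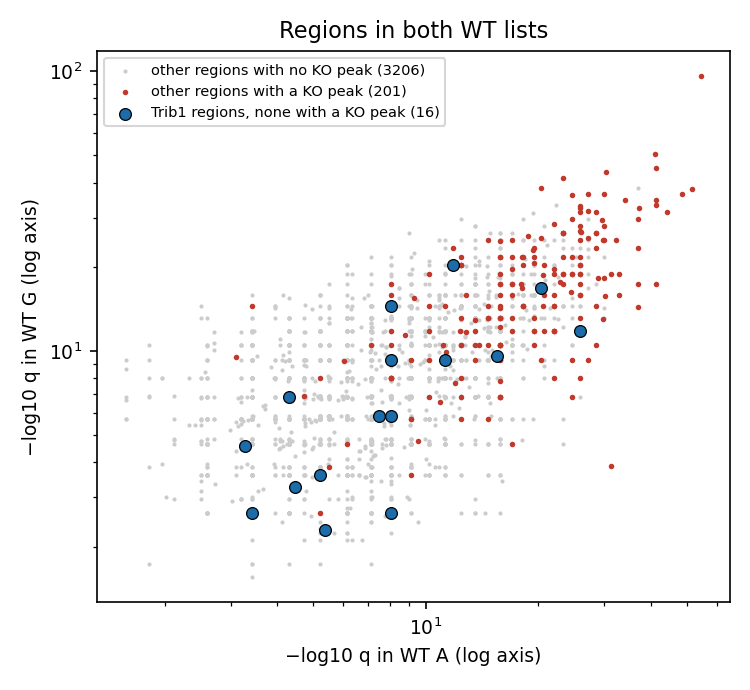
The −log10 q in WT A (x axis) and WT G (y axis), both on log axes, of the 3423 regions in both WT lists. Blue points are the 16 Trib1 regions, red points the other 201 regions that overlap a KO peak, and grey points the other 3206. The Trib1 points lie within the grey cloud, from 3.27 to 25.9 in WT A and from 2.30 to 20.2 in WT G, and the red points lie mostly toward the upper right.

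At the Trib1 gene itself, WT A had a single peak within 20 kb of the first TSS, the one in R5, and WT G had 6. Only 36.1% of all WT G peaks overlapped a WT A peak, so WT G peaks without one were common throughout that longer list. One of the 5 further WT G peaks lay in the first intron 2.37 kb after the TSS, with a fold enrichment of 6.45 and a −log10 q of 5.73. Another, in the 3′ UTR of the longer transcript 7.60 kb after the TSS, was the strongest WT G peak without a WT A peak (fold enrichment 7.74, −log10 q 8.04, 11 fragments). Another 2 lay just after the gene, 9.99 and 14.5 kb from the TSS, with a fold enrichment of 5.16 and 5.80. The lowest number of fragments at any listed summit was 10 (WT A) and 5 (WT G). The 5 further peaks were thus listed in 1 library of 2, and the WT A list does not give the signal at these sites.

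**Figure D4:**
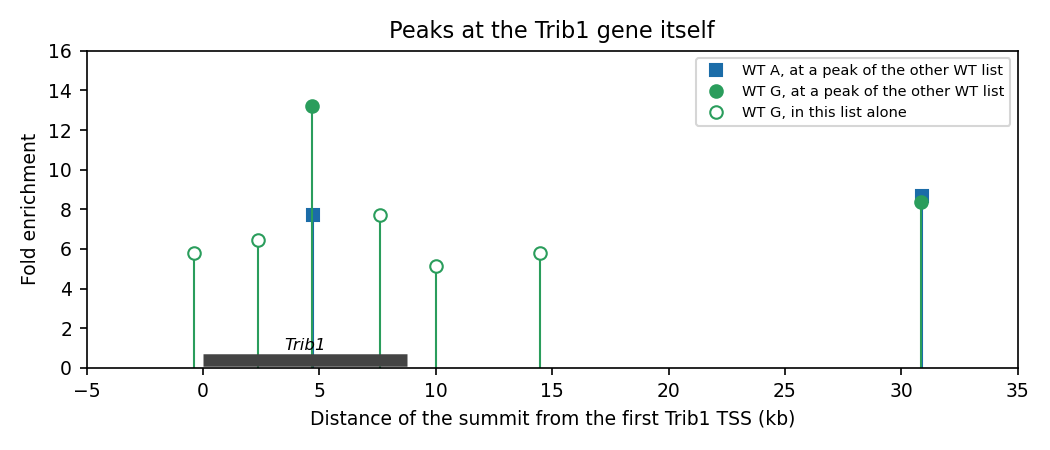
Peaks from 5 kb before to 35 kb after the first Trib1 TSS. The x axis is the distance of the summit from that TSS in kb and the y axis the fold enrichment at the summit. Squares are WT A and circles WT G, filled where the peak overlaps a peak of the other WT list and open where it does not, and the bar is the Trib1 gene. WT A and WT G share R5 and R6, and 5 WT G peaks up to 14.5 kb have no WT A counterpart.

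The second question was whether any RXRα signal at Trib1 was called in the KO lists. None of the 16 regions overlapped a KO peak, but neither did 94.1% of all regions in both WT lists, so a count of 0 in 16 was near the background. Of the 105 regions at least as strong as R11 in both WT lists, 66 had a KO peak, and R11 had none. Of the 855 regions ranked as high as R6 or higher, 163 (19.1%) had one, out of 201 such regions in all, and none of the 6 Trib1 regions among them did. Regions with a KO peak were thus mostly strong in WT. The KO lists were also sparse around the gene. KO A had 3 peaks on chromosome 15 and the nearest lay 16864 kb from the Trib1 TSS, and KO G had 12, the nearest 2408 kb away.

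What the KO lists could have shown depends on their backgrounds. Over the genome-wide background, the weakest peak listed in KO A had 10 fragments and a fold enrichment of 5.60, and the weakest in KO G had 8 fragments and a fold enrichment of 4.65. The WT A fold enrichment of 12 of the 16 regions reached this limit of KO A, and that of all 16 reached this limit of KO G. For WT G these numbers were 11 and 13. The other regions could have had the same fold enrichment in KO as in WT without being listed, and signal below these limits does not appear in a peak list. These counts are only a rough guide, because fold enrichment with 1 added to both parts depends on the background of each list. The backgrounds were 1.25 (WT A), 0.551 (WT G), 0.966 (KO A) and 0.936 (KO G) fragments.

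Each region was searched for motifs on both strands, within 50 bp of the summit of the stronger WT peak. The classical RXR elements are direct repeats of AGGTCA with 1 (DR1, used by RXR homodimers and PPAR-RXR), 2 (DR2), 4 (DR4, used by LXR-RXR) or 5 (DR5, used by retinoic acid receptors with RXR) bases between the hexamers. With at most 2 mismatches, none of the 4 repeats was found in any of the 16 windows, and 11.9% of all 3423 windows held at least 1 of them. With 3 mismatches allowed, DR1 was in 5 of the 16 windows (31.2%, against 21.2% of all windows), so this count depends on the mismatches allowed. DR1 was in 6.34% of all windows, DR2 in 2.54%, DR4 in 1.90% and DR5 in 2.57%. An AGGTCA hexamer without mismatch was in 2 of the 16 windows (R8, R14), or 12.5%, against 15.2% of all windows.

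When whole regions were searched, a choice made after the data had been seen, R5 held a DR5 with 1 mismatch on the plus strand (chr15:59653097-59653113, AGGTCATGCTGAGGACA). Its centre lay 20 bp after the WT A summit and 59 bp after the WT G summit, just outside the window searched. A DR5 with at most 1 mismatch was in 1 of the 16 whole regions (6.25%) and in 50 of all 3423 (1.46%). R6 held a DR1, R8 a DR4 and R14 a DR5, each with 2 mismatches. Over all regions searched whole with at most 2 mismatches, 21.5% held a DR1, 10.4% a DR4 and 10.4% a DR5.

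Of the motifs of other macrophage factors, C/EBP (TTGCNNAA) matched in 2 of the 16 windows (R8 and R13), 12.5% against 11.0% of all windows. At the summit of the other WT library it matched in 5 of the 16 (R3, R8, R11, R13 and R14), 31.2% against 11.0%, so this count depends on the library whose summit is used. AP-1 (TGANTCA) matched in 2 (R5 and R12), against 7.51%, and in R5 the match lay 4 bp from the WT G summit. PU.1 (GAGGAAGT, 4.38% of all windows), RUNX (TGTGGTT, 5.93%) and the E-box CACGTG (1.81%) had no match in the 16 windows. In the whole regions, C/EBP matched in 9 of 16 (56.2%, against 42.2% of all regions), AP-1 in 6 (37.5%, against 30.1%) and RUNX in 5 (31.2%, against 24.6%). The E-box matched in 4 whole regions (25%, against 11.4%) and PU.1 in 2 (12.5%, against 16.1%). The window of the Trib2 site also held a C/EBP match, 1 bp from its summit. These are matches of letters and not binding sites, and a window without one says nothing about the factor. GC content was a median of 48.0% in the 16 windows and 45.5% in all, and 1 window of 16 (R16) was more than 50% repeat, against 6.37% of all.

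The field of regions continued past the border of the Trib1 stretch. Upstream, the first WT G peak of R1 had its midpoint 176 bp inside the border with Nsmce2, and the WT A peak there lay 243 bp inside. The next region in both WT lists upstream was nearest to Nsmce2 (chr15:59480707-59482155, −log10 q 10.2 (WT A) and 9.66 (WT G)). Downstream, 2 regions were assigned to 4933412E24Rik, whose TSS lay about 150 kb further on. The stronger of them (chr15:59865822-59867116) had a −log10 q of 19.4 (WT A) and 11.8 (WT G) and ranked 353, above R8. None of these 3 regions had a KO peak. Without 4933412E24Rik among the TSSs, an alternative chosen after the data had been seen, Trib1 had 18 regions in both WT lists.

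The genes beside Trib2 and Trib3 were counted in the same way. Lpin1, a phosphatidate phosphatase gene next to Trib2, had 5 peaks in each WT list, 1 in KO A and none in KO G, and 3 regions in both WT lists, as many as the 2 neighbours of Trib1 together. Fam84a, on the other side of Trib2, had no peak in any list, and neither did Rbck1 and Nrsn2, on either side of Trib3.

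Over the 4 lists, the genes whose peak numbers were most like those of Trib1 were Iqgap1, Tcf7l2 and Bhlhe40, by the distance of log2(number + 1). Iqgap1, a cytoskeletal scaffold gene, had 12 peaks in WT A, 28 in WT G and none in KO (distance 0.472 over 4 lists). Tcf7l2, encoding a transcription factor of the Wnt pathway, had 12, 23 and none (0.519). Bhlhe40, encoding a basic helix-loop-helix factor of macrophages, had 12, 22 and none (0.549). All 3 had fewer WT A peaks than Trib1.

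Finally, a list of 16 genes whose products are known to bind Tribbles proteins or to act with them was examined. At least 1 region in both WT lists was nearest to 5 of the 16 (Cop1, Cebpa, Cebpb, Ddit3 and Foxo3), where 8.82% of all protein-coding genes had one. The list was chosen with earlier results of these data known, so this is a description and not a sign of enrichment. The ligase gene Cop1 had 1 region, at −45.2 kb from its TSS, with a −log10 q of 20.7 (WT A) and 15.9 (WT G), and it overlapped a KO G peak. Of the substrates, Cebpa had 3 regions, the best with a −log10 q of 7.14 (WT A) and 10.1 (WT G) at −28.7 kb, and none with a KO peak. Cebpb, encoding the related factor C/EBPβ, had 15 regions, the best with a −log10 q of 48.5 and 36.4 at 35.1 kb downstream, and 3 of them overlapped a KO peak. Trib1 had 1 more region than Cebpb, but its strongest region was weaker in both lists, and Cebpb had peaks in both KO lists, 2 in KO A and 3 in KO G.

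Of the stress genes, Ddit3, which encodes CHOP, had 1 region at its promoter, −0.072 kb from the TSS (−log10 q 7.14 (WT A) and 6.88 (WT G)). Atf4 had 1 peak in each WT list, and these did not overlap. Trib3, which both factors are known to induce, had none. Foxo3, a forkhead transcription factor gene, had 1 region 5.94 kb downstream of its TSS (−log10 q 3.43 (WT A) and 9.26 (WT G)). The Tribbles-related pseudokinase gene Stk40 had 3 peaks in WT G only, and Map2k4 and Sin3a had 1 each in WT G only. The other 7 genes, Akt1, Akt2, Map2k1, Map2k7, Mlxipl, Acaca and Rela, had no peak in any list.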

How the data were processed

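RXRα HT-ChIPmentation peak lists of 2 WT and 2 KO libraries were used; an input (n = 1) served the authors' peak calling. Per the study's methods, adapters were trimmed (Cutadapt 1.7.1) and paired reads were mapped to mm10 (Bowtie2); duplicated, unpaired or low-quality alignments were dropped (samtools 0.1.18). MACS3 3.0.0a5 then called peaks in every library separately, at q 0.05. The fold enrichment the authors deposited is the pileup over the local background at the summit, a ratio with 1 added to both. The −log10 p and −log10 q the authors deposited describe the summit, and the deposited score is derived from the −log10 q. The lists give no read totals, and the totals in the study's supplement are not used here; the depth given is the number of fragments at each summit.

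Fragments and background were solved from fold enrichment and −log10 p (Poisson tail, tolerance 0.006, or 0.012 in the scaled WT A list). In WT A the pileup was scaled by 0.884, as found from the values, and 4750 of 4751 peaks were explained; in the other lists all were. The solution was tested on simulated peaks. TSSs came from GENCODE M21 basic protein-coding transcripts. WT peaks overlapping by at least 1 bp were merged. Python 3.11.15, pandas 2.3.3, scipy 1.17.1 and pysam 0.24.0 were used.

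The members, gene lists and motifs were chosen with earlier results of these data known. Described in full were the 6 Trib1 regions best placed by the sum of their −log10 q ranks in the 2 WT lists, any region with a KO peak, a DR1 match or within 1 kb of the TSS, the flanking genes, the 3 genes most like Trib1 and the partner genes with a region. The closing section gives the alternatives. The details of 1 WT G peak are not reported here.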

Additional observations from a re-analysis of the deposited data

How the results depend on the processing

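Of 101 values under alternatives, 83 stayed within 1.5 times of the reported count, 18 moved and 0 reversed. Many of the 83 were counts of 0, such as those of the KO lists and Trib3. A stricter threshold, a distance cap or a left-out KO list cannot raise a 0, so this tally does not measure robustness. With TSSs of genes of any biotype, Trib1 had 1 peak in WT A, 5 in WT G and 1 region in both WT lists (rank 687), and Trib2 had 0 peaks in WT G. With peaks of −log10 q of at least 5, WT G had 12 Trib1 peaks, 9 regions remained in both lists (rank 3), and Trib2 had 0. Within 100 kb of the TSS, Trib1 had 7 peaks in WT A, 13 in WT G and 6 regions, and Trib2 had 0. With WT G cut to as many peaks as WT A has, 10 regions were in both lists. By regions per 100 kb, Trib1 ranked 291. A DR1 match was in 5 windows at 3 mismatches (31.2%, against 21.2% of all windows) and in 1 whole region at 2. A C/EBP match was in 5 windows at the summit of the other WT library, against 11.0% of all such windows.

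The WT mean minus the KO mean of Trib1 peaks was 22. Leaving out each library in turn gave 17 to 27. With the letters A and G as a replicate block, the difference was 17 in the A pair and 27 in the G pair, with a mean of 22. Whether the letters mark a pairing is not given in the labels. The KO lists hold few peaks, and a peak list does not show signal under its threshold.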
